A study of Mus musculus with 18 samples.

Results

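The genes described here encode the hyaluronan-based matrix of the brain, which condenses into perineuronal nets around some neurons. They comprise the lecticans Acan, Bcan, Ncan and Vcan, the link proteins Hapln1, Hapln2 and Hapln4, the tenascins Tnr and Tnc, and the receptor phosphatase Ptprz1. They were taken by symbol from the table of gene levels and are 10 of the 28852 genes listed there. RNA was sequenced from the cerebral cortex of Alg13 knockout mice and wild-type mice at postnatal days 1, 7 and 30, with 3 libraries in each of the 6 groups and 18 in all. Alg13 encodes the catalytic part of a sugar transferase that acts early in building N-linked glycan chains. The study asked how loss of Alg13 bears on interneurons of the postnatal cortex. The sources used here do not give the targeting allele, the strain, the sex or the number of animals behind each library. The p-values therefore reflect only how far these libraries differ, which may be technical.

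Lecticans are chondroitin sulfate proteoglycans that bind hyaluronan at one end and tenascins at the other. Link proteins lock the lectican onto the hyaluronan chain, and trimers of tenascin-R tie neighbouring lecticans together. Nets of this kind are best known around fast-spiking parvalbumin interneurons, where they mature after birth as plasticity declines, while the perinatal cortex holds a looser matrix rich in versican, neurocan and tenascin-C.

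All levels are fragments per kilobase of transcript scaled to library size (FPKM), a unit that allows levels of different genes to be set side by side per length. Differences are on the log2(FPKM + 1) scale and understate the change of genes near or under 1 FPKM. They were tested with limma in 1 fit across 13347 genes that reached 1 FPKM in at least 3 libraries, and a gene was called at a Benjamini-Hochberg adjusted p under 0.05. Of the 10 genes, 9 passed that filter. Acan did not, since it stayed under 1 FPKM in every library. Hapln4 reached 1 FPKM in 6 libraries and Hapln2 in 5, all of them at day 30, so both entered the test through the age at which they are high, and Hapln1 entered through days 7 and 30. In bulk cortex, fewer cells of a type and less RNA per cell cannot be told apart.

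Summed FPKM lay between 313919 and 394975 per library, and the number of sequenced fragments is not known from these values. The deposited levels do not check the genotype labels. Alg13 averaged 2.04 ± 0.862 FPKM in libraries labelled knockout and 2.67 ± 0.676 FPKM in wild type at day 1 (mean ± SD of 3 libraries each). The day 7 averages were 2.35 ± 0.423 FPKM in knockout and 1.80 ± 0.228 FPKM in wild type, and those of day 30 were 1.45 ± 0.334 FPKM in knockout and 1.00 ± 0.191 FPKM in wild type. None of these differences passed limma's test (adjusted p = 0.38, 1.00 and 1 at days 1, 7 and 30), and which part of the gene was removed is not given, so every genotype direction below goes by the label. Library 3 of day 1 wild type held salivary gland transcripts at a summed 35208 FPKM over 8 genes, against at most 14.9 FPKM in the other 17 libraries. Libraries also differed in sex-linked RNA: Xist stood at 23.8 FPKM in day 1 knockout library 3, and at 157 and 39.4 FPKM in day 1 wild-type libraries 2 and 3 and 31.5 FPKM in day 30 wild-type library 2, against at most 0.0650 FPKM elsewhere. Day 7 wild-type library 3 had the highest level of the 9 radial glia and progenitor markers among day 7 libraries, a summed 916 FPKM, against 423 to 587 FPKM in day 7 knockout and 547 and 549 FPKM in its 2 wild-type partners. Calls on the 9 genes that ended or appeared when 1 of these libraries was left out are given with their values below. Without day 30 wild-type library 2 none of 81 values of the 9 genes gained or lost a call. Without day 1 knockout library 3 the sole change was a gained call for Bcan between days 7 and 30 in wild type (adjusted p = 0.0462).

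Most of the 10 genes changed with age, in opposite directions, and no genotype difference was called. Tnc and Vcan were high at birth and low at day 30, Hapln1 appeared between days 1 and 7, and Hapln4 and Hapln2 appeared between days 7 and 30. Of these, Hapln1 is shown by its upstream sequence as the early riser, Hapln2 as a late riser and Tnc as a gene that falls. Windows come from the mouse build GRCm38.p6, while the submitters' processing notes name GRCm39 for the expression values, so the coordinates belong to the sequences alone. They are Hapln1 at chr13:89540386-89540528 (plus strand), Hapln2 at chr3:88027512-88027761 (minus strand) and Tnc at chr4:64047016-64047265 (minus strand), all outside the transcribed gene, printed 5′ to 3′ along the gene. Capitals mark matches on either strand to a TATA box (TATAAA), a GC box (GGGCGG) or the core of a SOX site (ACAAT, reverse ATTGT).
Hapln1: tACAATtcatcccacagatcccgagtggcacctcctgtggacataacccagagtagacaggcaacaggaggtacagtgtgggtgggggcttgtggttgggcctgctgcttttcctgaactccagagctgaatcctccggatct
Hapln2: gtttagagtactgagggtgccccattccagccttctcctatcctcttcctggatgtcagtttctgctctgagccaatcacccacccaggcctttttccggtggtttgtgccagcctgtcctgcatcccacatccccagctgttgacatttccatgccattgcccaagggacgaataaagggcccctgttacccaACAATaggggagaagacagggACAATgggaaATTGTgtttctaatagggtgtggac
Tnc: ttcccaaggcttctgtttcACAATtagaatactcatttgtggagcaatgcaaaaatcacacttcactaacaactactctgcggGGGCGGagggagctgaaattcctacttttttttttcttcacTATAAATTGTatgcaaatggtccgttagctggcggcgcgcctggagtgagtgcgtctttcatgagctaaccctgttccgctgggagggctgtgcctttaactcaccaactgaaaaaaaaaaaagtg
The Hapln1 stretch is 143 bases long, since the rest of its 250-base window lies within the gene, and the other stretches are 250 bases. The Hapln2 stretch held 3 SOX cores, the Tnc stretch 2 and the Hapln1 stretch 1. In Tnc the TATA box and one SOX core share a base. Over the 250 bases upstream of 32851 RefSeq promoters, 27.7% held a SOX core, 12.4% a TATA box and 32.7% a GC box, so the cores are common and a match is a description of the letters only. The full 250-base windows also differed in CpG dinucleotides, of which the median promoter held 6. Hapln1, Hapln2 and Tnr held 2 each, Ncan 6 and Tnc 8, whereas Acan held 26, Ptprz1 22, Bcan 16 and Vcan 10. Of the 10 genes, 9 had a window, and Hapln4 had none.

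**Figure D1:**
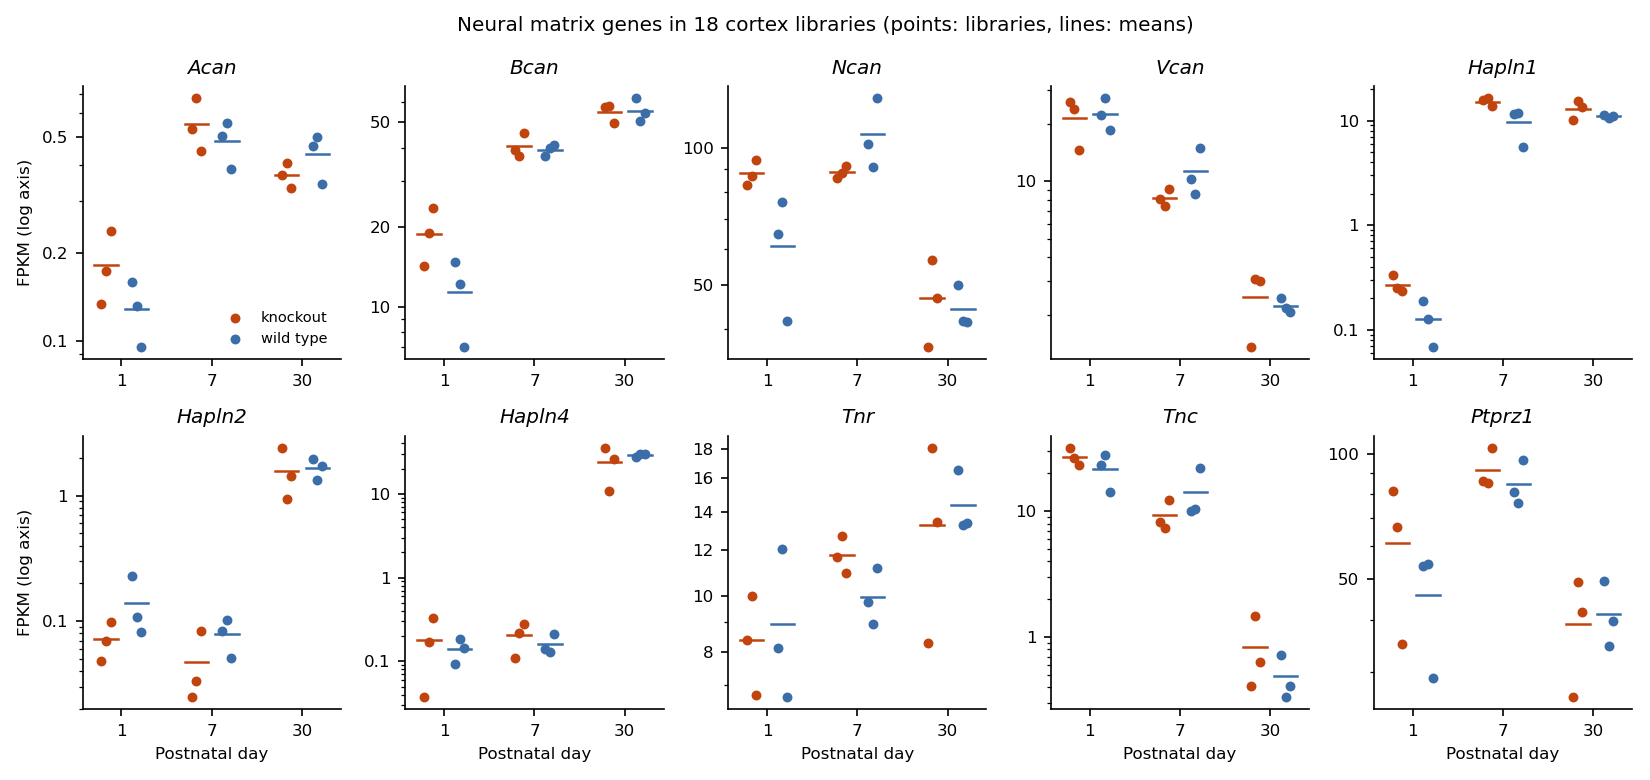
FPKM (log axis) of each of the 10 genes against postnatal day, with 1 point per library (knockout in orange, left of wild type in blue) and a line at the mean of 3 libraries. Hapln4 and Hapln2 sit under 1 FPKM until day 30, and Hapln1 leaves that floor by day 7. The means of Tnc and Vcan descend through all 3 ages in both genotypes, though wild-type Tnc libraries of days 1 and 7 overlap.

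Among lecticans, Ncan encodes neurocan, which neurons and astrocytes secrete around birth. It was the most abundant lectican at days 1 and 7 in all 12 libraries of those ages. At day 1 Ncan stood at 83.0, 86.9 and 94.2 FPKM in knockout libraries and 64.8, 76.0 and 41.7 FPKM in wild-type libraries. Day 7 levels were 85.9, 88.3 and 91.4 FPKM in knockout and 102, 90.7 and 129 FPKM in wild type. Day 30 levels were 36.6, 56.9 and 46.9 FPKM in knockout and 50.0, 41.6 and 41.5 FPKM in wild type. Every day 30 library thus lay below every day 7 library of its genotype. Ncan fell between days 7 and 30 by 0.93 in knockout (SE 0.192, adjusted p = 0.00128) and by 1.24 in wild type (SE 0.192, adjusted p = 6.03e-05). Between days 1 and 7 the difference was 0.01 in knockout (adjusted p = 0.973), and Ncan rose by 0.83 in wild type (adjusted p = 0.00201). A change of the genotype difference over the 3 ages did not pass for Ncan (limma interaction adjusted p = 0.527). The wild-type rise was 0.59 (adjusted p = 0.00625) without day 1 wild-type library 3 and 0.69 (adjusted p = 0.013) without day 7 wild-type library 3.

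Bcan encodes brevican, a lectican of the mature matrix made largely by astrocytes and other glia. Its level was higher at each later age, and only the step between days 1 and 7 was called. At day 1 it stood at 14.3, 19.0 and 23.6 FPKM in knockout and 14.8, 12.2 and 7.04 FPKM in wild type. The day 7 libraries held 39.4, 37.3 and 45.8 FPKM in knockout and 37.4, 39.9 and 41.1 FPKM in wild type. The day 30 libraries held 57.4, 57.8 and 49.8 FPKM in knockout and 61.7, 50.5 and 54.2 FPKM in wild type. The 3 ages did not overlap in either genotype. The rise between days 1 and 7 was 1.09 in knockout (SE 0.202, adjusted p = 0.000354) and 1.77 in wild type (SE 0.202, adjusted p = 4.57e-06), or 1.49 in wild type without day 1 wild-type library 3 (adjusted p = 2.07e-06). Between days 7 and 30 the differences of 0.42 in knockout and 0.48 in wild type did not pass (adjusted p = 0.11 and 0.0594). Both passed without day 1 wild-type library 3 (adjusted p = 0.0229 in knockout and 0.00915 in wild type), a library that enters these contrasts only through the shared spread.

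Vcan encodes versican, the lectican of the embryonic and perinatal matrix. At day 1 Vcan stood at 26.1, 24.1 and 14.6 FPKM in knockout and 22.1, 27.2 and 18.5 FPKM in wild type. At day 7 it stood at 8.12, 7.45 and 9.06 FPKM in knockout and 10.3, 8.60 and 14.9 FPKM in wild type. At day 30 it stood at 1.35, 3.06 and 3.02 FPKM in knockout and 2.45, 2.15 and 2.07 FPKM in wild type. Each step was a descent with no overlap between ages. Vcan fell between days 1 and 7 by 1.26 in knockout (SE 0.239, adjusted p = 0.000434) and by 0.96 in wild type (SE 0.239, adjusted p = 0.00341). The wild-type value was -1.09 without day 1 wild-type library 3 and -1.17 without day 7 wild-type library 3 (adjusted p = 0.00184 and 0.00153). It fell again between days 7 and 30 by 1.45 in knockout (adjusted p = 0.00019) and by 1.90 in wild type (adjusted p = 7.99e-06).

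Acan encodes aggrecan, the lectican used most often to mark perineuronal nets, and it was the least abundant of the 4. At day 1 Acan stood at 0.133, 0.173 and 0.237 FPKM in knockout and 0.159, 0.132 and 0.0953 FPKM in wild type. Day 7 levels were 0.533, 0.676 and 0.447 FPKM in knockout and 0.504, 0.555 and 0.388 FPKM in wild type. Day 30 levels were 0.370, 0.404 and 0.334 FPKM in knockout and 0.465, 0.498 and 0.345 FPKM in wild type. All day 7 libraries lay above all day 1 libraries, and the genotypes overlapped at each age. With the filter on low values removed, the difference between days 1 and 7 was 0.39 in knockout and 0.39 in wild type (adjusted p = 0.000351 and 0.000378). Aggrecan is also the chief proteoglycan of cartilage. Of 9 cartilage genes, only 2 passed the filter on low values. Summed levels of the 9 were 10.8 to 15.4 FPKM at days 1 and 7 and 4.90 to 7.79 FPKM at day 30. Their part in the Acan values was not tested.

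As shares of the summed FPKM of the 4 lecticans, the mixture turned over between birth and day 30. Ncan made up 68.3 ± 2.33% in knockout and 63.8 ± 1.94% in wild type at day 1, 64.2 ± 1.88% in knockout and 67.4 ± 2.34% in wild type at day 7, and 44.4 ± 5.39% in knockout and 43.3 ± 0.884% in wild type at day 30 (± is the SD of 3 libraries). Bcan made up 14.6 ± 3.11% in knockout and 11.8 ± 2.32% in wild type at day 1, 29.5 ± 1.68% in knockout and 25.2 ± 3.19% in wild type at day 7, and 52.9 ± 6.14% in knockout and 54.1 ± 1.03% in wild type at day 30. Vcan made up 16.9 ± 5.25% in knockout and 24.3 ± 2.94% in wild type at day 1, and 2.34 ± 0.829% in knockout and 2.17 ± 0.0867% in wild type at day 30. Bcan exceeded Ncan in all 6 libraries of day 30 and in none of the other 12. The lowest Vcan share at day 1 was 11.03%, in a knockout library. All 3 knockout shares lay below the 3 wild-type shares, the nearest being 21.1% in knockout and 21.7% in wild type. The Ncan shares lay apart the other way, at 66.8% to 71.0% in knockout and 61.9% to 65.8% in wild type. The Vcan level itself overlapped between genotypes at day 1 (difference -0.09, limma adjusted p = 0.856). By level, 14.8% of all tested genes did not overlap at that day. Without day 1 wild-type library 3 the wild-type means at day 1 were 64.7% for Ncan, 12.5% for Bcan and 22.6% for Vcan, and without day 7 wild-type library 3 those at day 7 were 66.4% for Ncan and 26.7% for Bcan. Shares over genes chosen as a set were not tested.

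**Figure D2:**
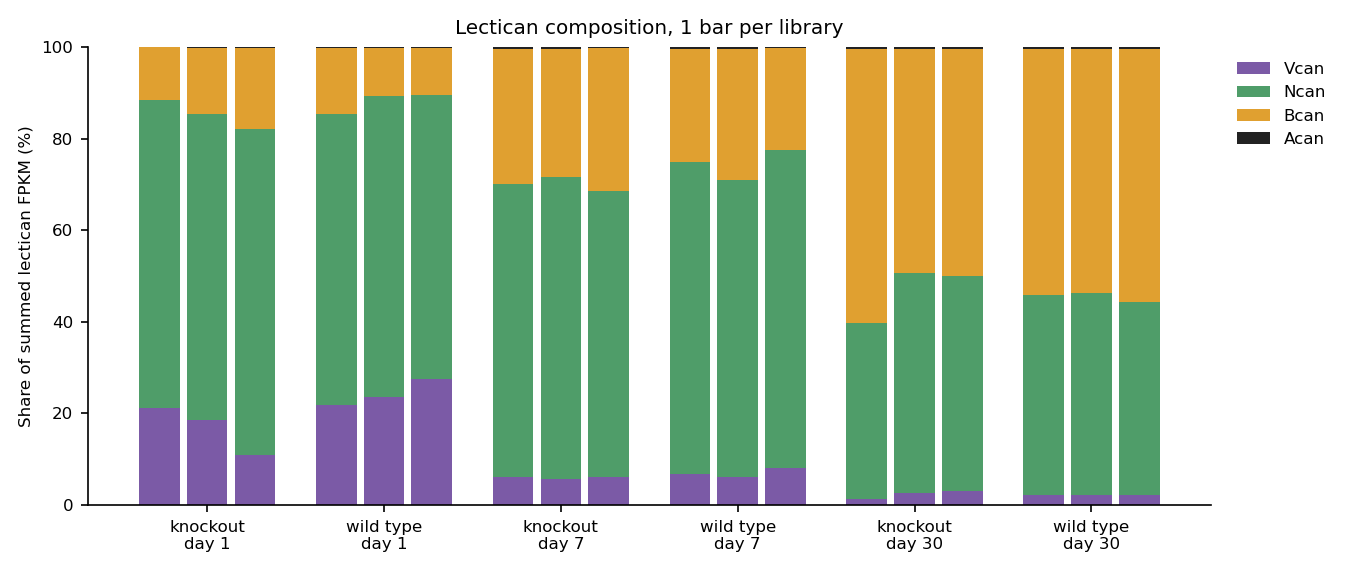
Share of the summed lectican FPKM (%) taken by Acan, Bcan, Ncan and Vcan, with 1 bar per library and the knockout bars left of the wild-type bars at each age. Ncan takes the most at days 1 and 7, and Bcan takes 48.9% to 60.0% at day 30.

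At day 1 the link protein genes stayed under 1 FPKM, as did Acan, while Ncan, Bcan and Vcan lay well above it. Hapln1 rose between days 1 and 7, and Hapln2 and Hapln4 rose between days 7 and 30. The summed FPKM of the link protein genes equalled 0.404 ± 0.0822% of the lectican sum in knockout and 0.433 ± 0.0685% in wild type at day 1. At day 7 it equalled 11.3 ± 1.48% in knockout and 6.52 ± 2.93% in wild type. At day 30 the share was 37.8 ± 13.6% in knockout and 41.1 ± 4.78% in wild type (± is the SD of 3 libraries). Without day 7 wild-type library 3 the day 7 wild-type share was 8.20%, and without day 30 knockout library 2 the day 30 knockout share was 45.2%.

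Hapln1 encodes the link protein that cortical neurons need to build full nets in mice. At day 1 Hapln1 stood at 0.331, 0.249 and 0.233 FPKM in knockout and 0.187, 0.128 and 0.0688 FPKM in wild type. The day 7 libraries held 15.7, 16.3 and 13.7 FPKM in knockout and 11.6, 11.7 and 5.59 FPKM in wild type. The day 30 libraries held 10.1, 15.2 and 13.4 FPKM in knockout and 11.4, 10.6 and 11.01 FPKM in wild type. The jump came within the first week, after which days 7 and 30 overlapped in both genotypes. The mean of day 7 was 56.1 times that of day 1 in knockout and 75.3 times in wild type, both over a day 1 level under 1 FPKM. On the log2(FPKM + 1) scale Hapln1 rose by 3.67 in knockout (SE 0.199, adjusted p = 1.1e-08) and by 3.17 in wild type (SE 0.199, adjusted p = 2.45e-08). The wild-type rise was 3.14 without day 1 wild-type library 3 and 3.49 without day 7 wild-type library 3. Between days 7 and 30 the differences were -0.23 in knockout and 0.24 in wild type (adjusted p = 0.377 and 0.329).

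Hapln4 encodes the link protein found with brevican in nets, known also from the cerebellum and brainstem. At day 1 it stood at 0.0379, 0.173 and 0.327 FPKM in knockout and 0.0931, 0.184 and 0.145 FPKM in wild type. At day 7 it stood at 0.110, 0.220 and 0.283 FPKM in knockout and 0.139, 0.129 and 0.213 FPKM in wild type. At day 30 it stood at 35.0, 10.8 and 26.0 FPKM in knockout and 27.4, 30.2 and 29.6 FPKM in wild type. Hapln4 was thus the most abundant link protein at day 30 in 5 of 6 libraries, the exception being knockout library 2, where Hapln1 was higher. It rose between days 7 and 30 by 4.23 in knockout (SE 0.262, adjusted p = 8.85e-09) and by 4.69 in wild type (SE 0.262, adjusted p = 1.4e-09). Between days 1 and 7 the differences were 0.03 in knockout and 0.02 in wild type (adjusted p = 0.927 and 0.947).

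Hapln2 encodes the link protein of the nodes of Ranvier, made by myelinating cells. It stayed at or under 0.0985 FPKM in knockout and 0.229 FPKM in wild type at days 1 and 7. Day 30 levels were 2.38, 0.933 and 1.42 FPKM in knockout and 1.96, 1.32 and 1.71 FPKM in wild type. The step between days 7 and 30 was a rise of 1.26 in knockout (SE 0.155, adjusted p = 1.21e-05) and of 1.30 in wild type (SE 0.155, adjusted p = 4.58e-06). Summed levels of 8 oligodendrocyte and myelin genes were 66.8 to 93.1 FPKM in knockout and 36.2 to 59.0 FPKM in wild type at day 7, and 981 to 1032 FPKM in knockout and 637 to 935 FPKM in wild type at day 30. Whether more such cells underlie the Hapln2 level was not tested.

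Each link gene lies next to a lectican gene in the GRCm38 gene order: Hapln1 beside Vcan on chromosome 13, Hapln2 beside Bcan on chromosome 3 and Hapln4 beside Ncan on chromosome 8. The neighbours did not run together. Between days 7 and 30 Hapln4 rose while Ncan fell in both genotypes, and between days 1 and 7 Hapln1 rose while Vcan fell. Bcan and Hapln2 were not called in opposite directions in either interval, and Bcan rose in the first and Hapln2 in the later one.

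**Figure D3:**
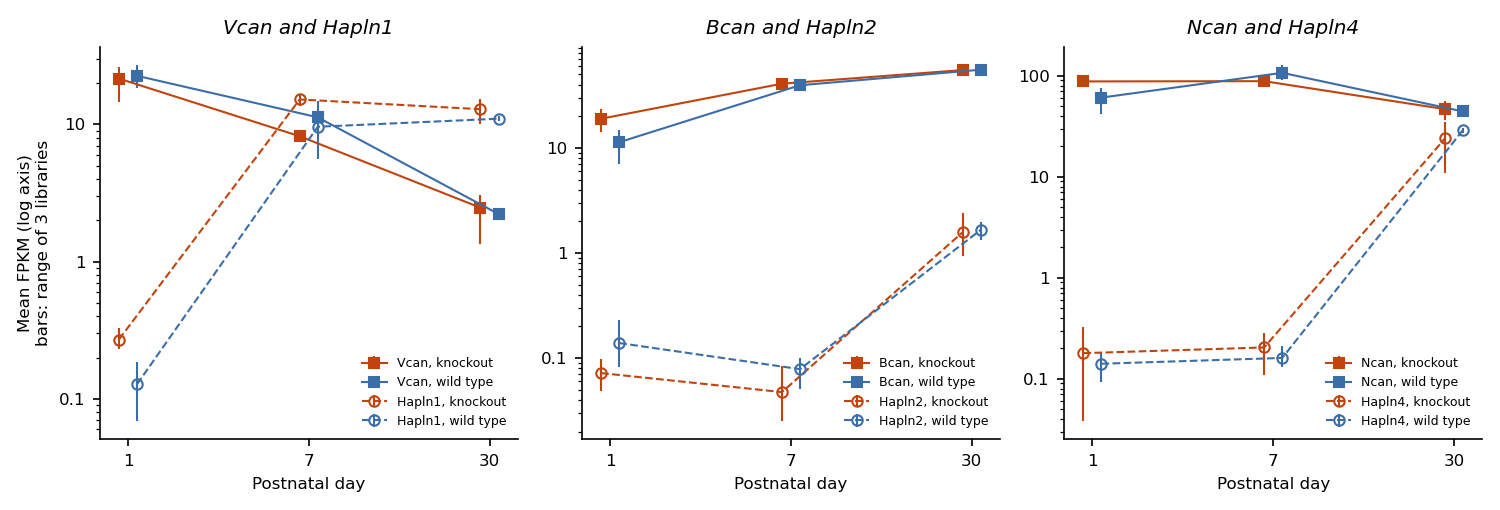
Mean FPKM (log axis) by postnatal day of the 3 neighbouring pairs of lectican (squares, solid) and link protein gene (circles, dashed), knockout in orange and wild type in blue, with bars over the range of 3 libraries. The Hapln1 mean lies above the Vcan mean at day 7 in knockout and below it in wild type, where Hapln1 exceeded Vcan in libraries 1 and 2 but not in library 3, and Hapln4 climbs while Ncan descends between days 7 and 30.

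The tenascins differed in their course. Tnc encodes tenascin-C, a glycoprotein of radial glia and immature astrocytes. At day 1 Tnc stood at 31.7, 26.6 and 23.3 FPKM in knockout and 23.4, 27.9 and 14.2 FPKM in wild type. Day 7 levels were 8.20, 7.40 and 12.3 FPKM in knockout and 10.1, 10.4 and 22.1 FPKM in wild type. The day 30 libraries held 0.407, 1.48 and 0.633 FPKM in knockout and 0.720, 0.338 and 0.410 FPKM in wild type. Day 30 lay below day 7 in every library of both genotypes. The mean of day 7 was 11.1 times that of day 30 in knockout and 29.1 times in wild type, both over a day 30 mean under 1 FPKM. Without day 30 knockout library 2, at 1.48 FPKM, the knockout ratio was 17.9. Tnc fell in that interval by 2.50 in knockout (SE 0.295, adjusted p = 8.27e-06) and by 3.27 in wild type (SE 0.295, adjusted p = 2.36e-07). Between days 1 and 7 it fell by 1.47 in knockout (adjusted p = 0.000675), and the wild-type difference of -0.62 did not pass (adjusted p = 0.0921). That wild-type difference was -0.97 (adjusted p = 0.0101) without day 7 wild-type library 3 and -0.89 (adjusted p = 0.0162) without day 1 wild-type library 3. A change of the genotype difference over the 3 ages did not pass for Tnc (limma interaction adjusted p = 0.595). Day 7 wild-type library 3 holds the 22.1 FPKM above and the raised progenitor markers, whose part in it was not tested.

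Tnr encodes tenascin-R, the lectican cross-linker of nets, made by oligodendrocytes and some neurons. By the ratio of highest to lowest library it varied least among the 10 genes, between 6.68 and 18.03 FPKM (a ratio of 2.70). At day 1 Tnr stood at 8.37, 10.003 and 6.73 FPKM in knockout and 8.10, 12.1 and 6.68 FPKM in wild type. The day 7 libraries held 11.7, 12.7 and 10.9 FPKM in knockout and 9.75, 8.92 and 11.2 FPKM in wild type. At day 30 it stood at 8.29, 18.03 and 13.4 FPKM in knockout and 16.5, 13.3 and 13.4 FPKM in wild type. The day 30 knockout libraries spanned nearly the whole range of the gene. No step between ages was called in either genotype, the nearest being 0.49 between days 7 and 30 in wild type (SE 0.226, adjusted p = 0.0817). Under median-of-ratios scaling that step was 0.64 (adjusted p = 0.0273), and the knockout difference between days 1 and 7 moved to 0.60 (adjusted p = 0.0411), against 0.46 (adjusted p = 0.103) as deposited.

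Ptprz1 encodes a receptor tyrosine phosphatase whose secreted form, phosphacan, binds tenascins and contactin. At day 1 Ptprz1 stood at 81.3, 66.8 and 35.0 FPKM in knockout and 53.9, 54.4 and 29.0 FPKM in wild type. At day 7 it stood at 86.3, 85.1 and 103 FPKM in knockout and 81.2, 76.2 and 96.4 FPKM in wild type. Day 30 levels were 26.2, 49.3 and 41.8 FPKM in knockout and 49.5, 34.6 and 39.8 FPKM in wild type. Day 7 was the peak in both genotypes. Ptprz1 fell between days 7 and 30 by 1.25 in knockout (SE 0.292, adjusted p = 0.00319) and by 1.02 in wild type (SE 0.292, adjusted p = 0.00799). Between days 1 and 7 the knockout difference of 0.65 did not pass (adjusted p = 0.075), and the gene rose by 0.92 in wild type (adjusted p = 0.0158). The wild-type call did not hold without day 1 wild-type library 3 (0.63, adjusted p = 0.0683) or without day 7 wild-type library 3 (0.82, adjusted p = 0.0556). The knockout difference passed without day 1 knockout library 1 (0.90, adjusted p = 0.0282) and, through the shared spread, without day 1 wild-type library 3 (0.65, adjusted p = 0.0348). It was 0.30 without day 1 knockout library 3 (adjusted p = 0.384). A change of the genotype difference over the 3 ages did not pass for Ptprz1 (limma interaction adjusted p = 0.805).

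In all, 4 of 9 tested genes were called between days 1 and 7 in knockout, against 48.7% of all genes, and 5 of 9 in wild type, against 48.9%. Between days 7 and 30 it was 6 of 9 in knockout, against 37.9% of all genes, and the same 6 in wild type, against 50.4%. Nothing is read from these counts, since Hapln1, Hapln2, Hapln4 and Tnc passed the filter only through the ages at which they are high. Median-of-ratios scaling moved the median of all genes by 0.13 between days 7 and 30 in wild type and by 0.12 between days 1 and 7 in knockout, and no called gene of the 9 changed direction under it.

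**Figure D4:**
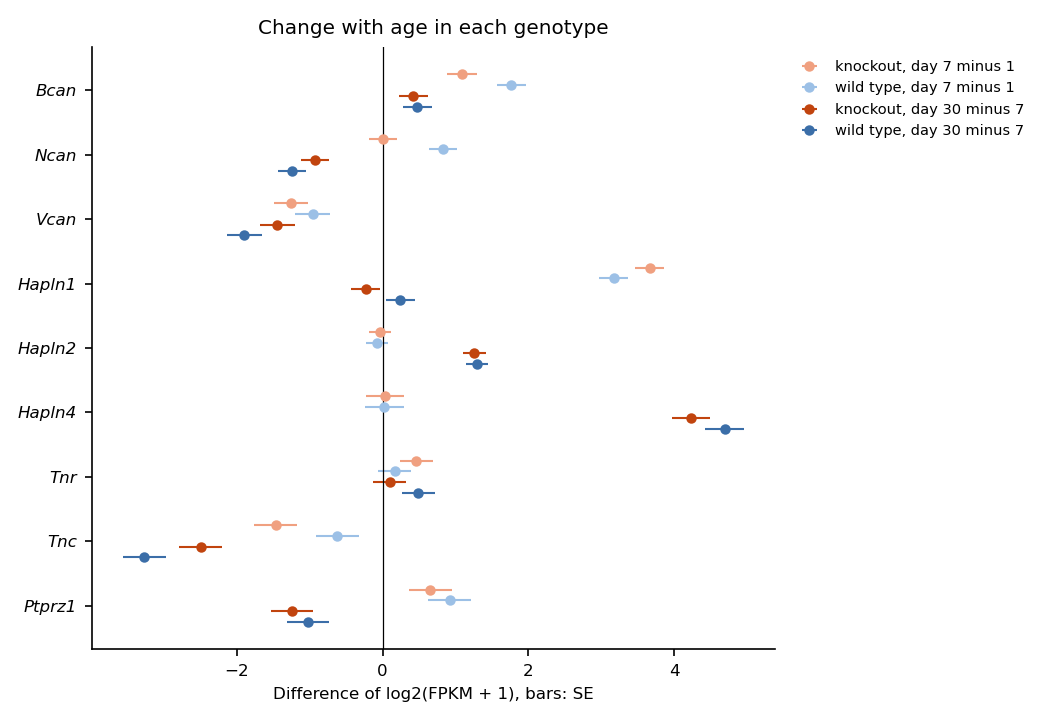
Change with age of the 9 tested genes as the difference of log2(FPKM + 1), for day 7 minus day 1 (pale) and day 30 minus day 7 (dark), knockout in orange above wild type in blue, with bars of 1 SE. Hapln4 has the highest positive value, 4.69 in wild type, and Tnc the lowest, -3.27 in wild type.

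For genotype, limma called 0 of 9 genes at day 1, where 0.517% of all genes were called, 0 of 9 at day 7 (0.00749% of all genes) and 0 of 9 at day 30 (0.0225%). Over the mean of 3 days and in the genotype by day interaction the count was again 0 of 9, against 0.0974% and 0.015% of all genes. At an unadjusted p under 0.05 the counts were 2 at day 1, 1 at day 7, 0 at day 30, 2 over the mean and 2 in the interaction. Of all tested genes 21.7% reached that level at day 1, 3.52% at day 7, 3.59% at day 30, 10.1% over the mean and 9.18% in the interaction, so 2 of 9 at day 1 is close to the share of all genes. Libraries of both genotypes failed to overlap for Ncan and Hapln1 at day 1 and for Hapln1 at day 7, with knockout higher each time, and for none at day 30. Among all tested genes 14.8%, 20.6% and 14.9% did not overlap at days 1, 7 and 30, with knockout higher for 8.92% at day 1 and 9.74% at day 7.

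At day 1 the nearest to a call were Bcan and Ncan. Bcan averaged 18.9 ± 4.65 FPKM in knockout and 11.3 ± 3.93 FPKM in wild type (± is the SD of 3 libraries), a difference of 0.72 (SE 0.202, limma adjusted p = 0.0824). Ncan averaged 88.0 ± 5.68 FPKM in knockout and 60.9 ± 17.5 FPKM in wild type, a difference of 0.57 (SE 0.192, adjusted p = 0.125). Both values turned on single wild-type libraries. Without wild-type library 3, which carries the salivary transcripts and the lowest Ncan and Bcan of all day 1 libraries, the differences were 0.44 and 0.32 (adjusted p = 0.125 and 0.256). Without wild-type library 2 they were 0.80 and 0.75 and passed (adjusted p = 0.0386 and 0.0281), as did 1531 genes in all. Levels of 8 astrocyte markers moved the same way, with sums of 118 to 148 FPKM in knockout and 113, 85.0 and 55.9 FPKM in wild-type libraries 1 to 3, and 2 of the 8 were called higher in knockout. Sums of 6 oligodendrocyte precursor markers were 56.7 to 67.2 FPKM in knockout and 41.9 to 48.7 FPKM in wild type, with 1 of the 6 called higher. The 9 radial glia and progenitor markers summed to 534 to 850 FPKM in knockout and 425 to 491 FPKM in wild type, with 0 of 9 called. Sums of 8 neuronal markers were 2464 to 2770 FPKM in knockout and 1555 to 2604 FPKM in wild type, with 1 of 8 called higher. All 8 meningeal, 6 endothelial and 5 blood markers had negative differences, with 0 called, and the meningeal sum was 41.4 to 46.1 FPKM in knockout and 34.0, 59.6 and 443 FPKM in wild-type libraries 1 to 3. Their part in the lectican values was not tested.

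At day 7 Hapln1 stood apart by 0.67 (SE 0.199, unadjusted p = 0.00396, limma adjusted p = 1), averaging 15.2 ± 1.37 FPKM in knockout and 9.63 ± 3.50 FPKM in wild type (± is the SD of 3 libraries). All 3 knockout libraries lay above all 3 wild-type libraries. Day 7 wild-type library 3, with 5.59 FPKM, carried much of the difference, which was 0.35 without it. The same library gave most of the wild-type excess in Tnc, whose difference of -0.50 moved to -0.16 without it, and in Vcan, where -0.39 moved to -0.18. Ncan averaged 88.5 ± 2.76 FPKM in knockout and 107 ± 19.4 FPKM in wild type (difference -0.26, adjusted p = 1), with 129 FPKM in that library as the highest of all 18, and the difference was -0.12 without it. Day 7 knockout library 3 departed the same way within its group, with the lowest Hapln1, the highest Tnc, Vcan and Ncan, and a progenitor marker sum of 587 FPKM. Both libraries deviated alike from their group means over all tested genes (r = 0.53). The differences without both were not computed.

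At day 30 the 10 genes overlapped throughout. Hapln4 averaged 23.9 ± 12.2 FPKM in knockout and 29.1 ± 1.47 FPKM in wild type (± is the SD of 3 libraries), a difference of -0.41 (SE 0.262, limma adjusted p = 1). It was 0.05 without knockout library 2, whose 10.8 FPKM was the lowest. That library also had the lowest Hapln2 and the highest Ncan, Tnr, Vcan and Tnc of day 30. Its 9 parvalbumin interneuron markers summed to 140 FPKM, against 203 and 244 FPKM in the other knockout libraries and 148 to 174 FPKM in wild type. Its 8 neuronal markers summed to 1918 FPKM, against 2244 and 2459 FPKM in those libraries and 2016 to 2155 FPKM in wild type. The 8 astrocyte markers summed to 1167 FPKM, against 889 and 993 FPKM (wild type 1097 to 1179 FPKM). The 6 oligodendrocyte precursor markers summed to 148 FPKM, against 109 and 110 FPKM (wild type 92.7 to 117 FPKM). Their part in the Hapln4 value was not tested. Pvalb itself stood at 108, 36.9 and 77.1 FPKM in knockout and 45.1, 55.7 and 62.8 FPKM in wild type, so Pvalb and Hapln4 took the same order over the 3 knockout libraries but not over the 3 wild-type libraries. The knockout order was not particular to Pvalb, since Hapln2, the myelin gene Opalin and the neuronal gene Snap25 shared it.

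**Figure D5:**
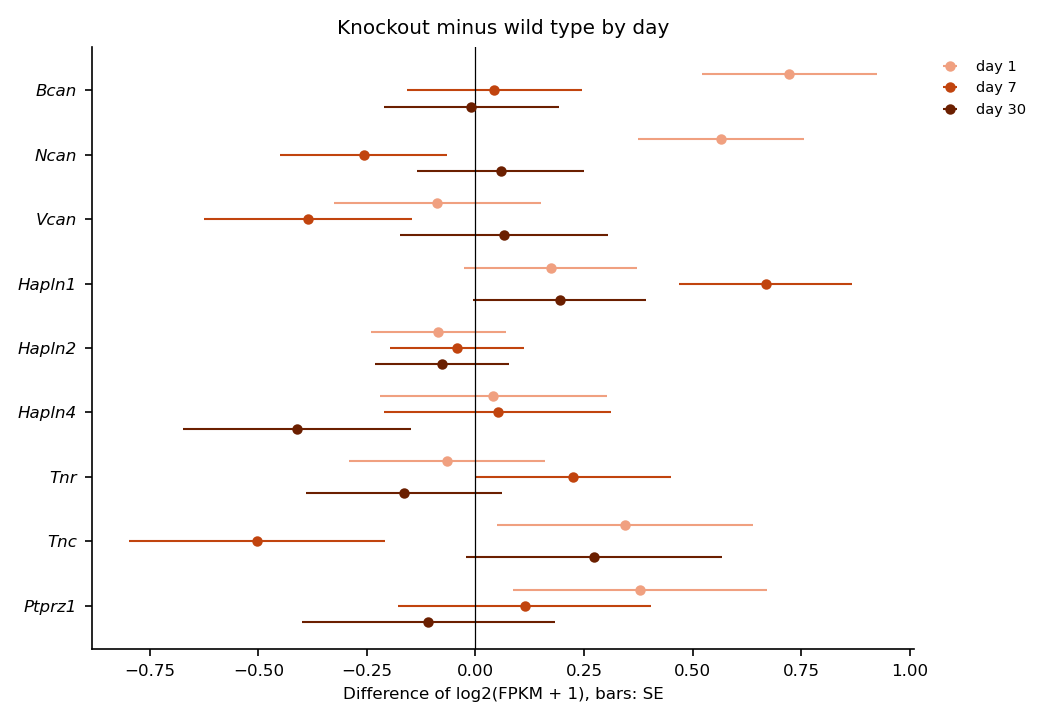
Knockout minus wild type for the 9 tested genes as the difference of log2(FPKM + 1), with 1 point per day (day 1 pale to day 30 dark) and bars of 1 SE. Bcan at day 1 (0.72) and Hapln1 at day 7 (0.67) lie farthest to the right and Tnc at day 7 (-0.50) farthest to the left, and none passed the adjusted threshold.

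The 3 tested genes most like each member were taken by Pearson correlation over the 18 libraries, which share age as their main source of spread. For Hapln4 they were Pvalb (r = 0.99), Opalin and Ankrd33b. Within the 6 day 30 libraries alone the correlation of Hapln4 was 0.72 with Pvalb and 0.71 with Opalin. For Hapln2 they were Opalin, a myelin protein (r = 0.98), Hapln4 and Epop. For Hapln1 they were Kcnk12 (r = 0.99), Ipcef1 and Ildr2, and for Bcan they were Clstn3 (r = 0.99), Atp1b2 and Mlc1. For Tnc they were Mtss1 (r = 0.99), Matcap1 and Idh1, and for Vcan they were Akap9 (r = 0.99), Cep170 and Frmd4a. Ncan was most like Tbc1d9 (r = 0.97), Ptprz1 most like Sema6d (r = 0.96), Acan most like Fam131b (r = 0.95) and Tnr most like Cacna1e (r = 0.91).

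Genes that make, modify, cut or bind this matrix were read from lists of 83 genes in 6 groups, of which 73 were tested. Limma called 0 of 73 by genotype at each day, over the mean of days and in the interaction. At an unadjusted p under 0.05 the counts were 20 at day 1, 3 at day 7, 1 at day 30, 8 over the mean and 6 in the interaction, to be read against the shares of all genes given above. Without day 1 wild-type library 2, 12 of the 73 were called at day 1, and without day 1 wild-type library 3 it was 1. Over all genes the counts in these settings were 1531 and 224, where the full fit held 13347 genes. Nothing particular to the lists is read from the 12 and the 1. Over the mean of 3 days, the smallest p was that of Spock3, a secreted testican proteoglycan. It stood at 3.52, 5.15 and 7.92 FPKM in knockout and 3.06, 2.89 and 1.24 FPKM in wild type at day 1, and at 19.5, 19.2 and 20.3 FPKM in knockout and 14.01, 14.4 and 13.98 FPKM in wild type at day 30. Knockout lay above wild type at both days without overlap, and 14.8% and 14.9% of all tested genes did not overlap at these days. The day 7 difference was 0.48 and was not called. The mean difference of 0.62 over the 3 days did not pass (SE 0.128, adjusted p = 0.104). It was 0.53 without day 1 wild-type library 3 (adjusted p = 0.0604), and it passed without day 1 knockout library 1 or day 1 wild-type library 2 (adjusted p = 0.0318 and 0.0488).

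With age these groups changed as follows, beside the shares of all tested genes. Between days 1 and 7, 19.3% of all genes rose and 29.4% fell in knockout, and 20.9% rose and 28% fell in wild type. Between days 7 and 30, 15.9% rose and 22% fell in knockout, and 20.8% rose and 29.6% fell in wild type. Of 9 tested genes for hyaluronan, 2 rose and 3 fell between days 1 and 7 in knockout, and 2 rose and 2 fell in wild type. From day 7 to day 30, 1 rose and 4 fell in knockout, and 2 rose and 5 fell in wild type. Has3, a hyaluronan synthase, fell in that interval by 1.32 in knockout and by 1.65 in wild type (adjusted p = 3.83e-06 and 1.73e-07), and Cd44, a hyaluronan receptor, fell by 1.16 in knockout and by 1.20 in wild type.

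Of 13 genes for chondroitin chain synthesis, 5 rose and 2 fell between days 1 and 7 in knockout, and 3 rose and 1 fell in wild type. From day 7 to day 30 the counts were 2 up and 2 down in knockout, and 2 up and 3 down in wild type. Csgalnact1, which starts chondroitin chains, rose between days 1 and 7 by 0.85 in knockout and by 0.96 in wild type, while Chsy1, which extends them, fell by 0.72 in knockout and by 0.47 in wild type. The wild-type call of Chsy1 ended under median-of-ratios scaling and quantile normalization (-0.37 and -0.32, adjusted p = 0.0835 and 0.139), and without the filter on low values (adjusted p = 0.0664). Of 10 genes for chondroitin sulfation and its removal, 3 rose and 1 fell between days 1 and 7 in knockout, and 4 rose and 2 fell in wild type. In the later interval 0 rose and 3 fell in knockout, and 2 rose and 3 fell in wild type. Arsb, a lysosomal sulfatase, rose between days 1 and 7 by 1.51 in knockout and by 1.55 in wild type (adjusted p = 4.17e-07 and 2.67e-07).

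Among 13 proteases that cleave lecticans and their inhibitors, 2 rose and 2 fell between days 1 and 7 in knockout, and 2 rose and 3 fell in wild type. In the later interval it was 1 up and 3 down in knockout, and 3 up and 5 down in wild type. Adamts4, an aggrecanase that cuts brevican and is made by oligodendrocytes, rose in that interval by 1.44 in knockout and by 1.43 in wild type (adjusted p = 1.18e-05 and 6.39e-06), whereas Mmp14 fell by 1.00 in knockout and by 1.35 in wild type and the inhibitor Timp2 fell by 0.95 in knockout and by 1.07 in wild type. Of 16 receptors and net-binding proteins, 5 rose and 2 fell between days 1 and 7 in knockout, and 7 rose and 2 fell in wild type. The later counts were 5 up and 3 down in knockout, and 5 up and 4 down in wild type. Nptx2, a pentraxin that gathers at nets, rose between days 7 and 30 by 1.59 in knockout and by 1.63 in wild type (adjusted p = 1.06e-05 and 4.06e-06), and Cntn1, the contactin that binds Ptprz1, rose between days 1 and 7 by 1.87 in knockout and by 2.17 in wild type. Of 12 other matrix proteins, 8 rose and 0 fell between days 1 and 7 in each genotype, with Sparcl1, an astrocyte protein, up by 1.72 in knockout and by 1.79 in wild type (adjusted p = 4.48e-08 and 2.51e-08). Later, 1 rose and 1 fell in knockout, and 1 rose and 3 fell in wild type. Reln, the reelin glycoprotein of Cajal-Retzius cells and later interneurons, fell between days 7 and 30 by 1.57 in knockout and by 1.75 in wild type.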

How the data were processed

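RNA-seq of mouse cerebral cortex, 18 libraries in 6 groups of genotype and postnatal day, was deposited by the authors as a table of FPKM per gene (fragments per kilobase of transcript, scaled to library size). Per the submitters' processing notes, the tools were Bowtie2, RSEM 1.3.1 and DESeq2 1.4.5 and the build was GRCm39; no gene model is given in the sources used here. FPKM depends on the other transcripts in a library, so a few abundant foreign transcripts lower all others, and fragment numbers are unknown. All libraries carry the same batch date.

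Values were tested as log2(FPKM + 1) with limma 3.58.1 in R 4.3.3, with a mean-variance trend, on 13347 genes at 1 FPKM or more in at least 3 libraries. One fit of 6 group means gave 9 comparisons, each with Benjamini-Hochberg adjustment over all genes and a threshold of 0.05. Genes named beside the 10 were, per list and comparison, up to 4 that passed with the smallest adjusted p, or, where none passed, at most 2 chosen by smallest p, and the 3 most correlated genes per member. Pvalb, Acan's cartilage markers and Opalin were shown after their values were seen. The genes and lists were chosen with earlier results of these data known. The fit was tested on simulated data without age differences, in which it recovered most known changes of 2 on the log2 scale. The largest genotype difference of the 9 tested genes was 0.72, and recovery of changes of that size was not tested. Alternatives were other pseudocounts, no filter, other scalings, fits of the compared groups alone, a replicate block and libraries left out. Promoter windows are RefSeq's, build GRCm38.p6.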

Additional observations from a re-analysis of the deposited data

Results flagged for a closer look

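For 2 genes that bind or accompany the matrix, knockout and wild-type libraries did not overlap at 2 ages and differed in opposite directions. They are 2 of 73 tested genes on the lists (2.74%), against 3.66% of all tested genes, and 0 of the 9. Cspg5, the neuroglycan C proteoglycan, stood at 53.0, 63.4 and 81.6 FPKM in knockout and 49.6, 52.7 and 34.1 FPKM in wild type at day 1 (difference 0.53), and at 101, 104 and 111 FPKM in knockout and 113, 122 and 112 FPKM in wild type at day 7 (difference -0.14). At day 1 the nearest libraries were 53.0 FPKM in knockout and 52.7 FPKM in wild type, and the day 1 difference was 0.34 without day 1 wild-type library 3. Ptn, the growth factor pleiotrophin that binds Ptprz1, stood at 495, 483 and 445 FPKM in knockout and 534, 535 and 517 FPKM in wild type at day 7 (difference -0.16), and at 362, 349 and 337 FPKM in knockout and 306, 274 and 293 FPKM in wild type at day 30 (difference 0.26). The change of the genotype difference with day did not pass for either gene (limma interaction adjusted p = 0.527 for both), and for Ptn it passed without day 1 wild-type libraries 2 and 3 together (adjusted p = 0.0403).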

How the results depend on the processing

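Of 2088 recomputed values of the 9 tested genes, 2057 stayed called or uncalled as before, 28 gained a call and 3 lost one. Of called values 0 reversed, while 45 uncalled values changed sign. The 3 losses were those of Ptprz1 between days 1 and 7 in wild type, the third of them without day 1 wild-type libraries 2 and 3 together (0.63, adjusted p = 0.165). Bcan between days 7 and 30 in wild type also passed without day 1 knockout library 1 or 3 or day 1 wild-type library 1, and Tnr between days 7 and 30 in wild type and between days 1 and 7 in knockout without day 30 knockout library 1. Both also passed in fits of the compared groups alone and, in wild type, under quantile normalization. Called genes among the 9, with single libraries left out, ranged from 0 to 2 by genotype at day 1, from 6 to 7 between days 7 and 30 in each genotype, and from 4 to 5 between days 1 and 7 in knockout. For the listed matrix genes, only those picked by smallest p per list and comparison were recomputed. Of their 3954 values, 77 lost a call, 22 gained one and 0 called values reversed. The picked genes were all called with age and all uncalled by genotype. Losses could thus arise only with age and gains only by genotype, so nothing is read from that split. Each gain came without 1 or more day 1 libraries.

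Counts over all genes moved more, and the cause was not tested. At day 1 the genotype count was 69 (48 higher, 21 lower), 42 with median-of-ratios scaling (27 higher, 15 lower), 0 from the day 1 groups alone (767 genes at an unadjusted p under 0.05), 1842 without wild-type libraries 2 and 3, and 10 to 1531 with 1 library left out. At day 7 it was 1, then 6 unfiltered, 9 from those groups alone, 2 without the same 2 libraries, and 0 to 2 with 1 left out. At day 30 it was 3, then 1 with a pseudocount of 5, 28 unfiltered, and 0 to 16 with 1 left out. Over the mean of days it was 13, then 8 with a pseudocount of 5, 777 without the 2 libraries, and 6 to 57 with 1 left out. In the interaction it was 2, then 0 with a pseudocount of 0.1, 8 unfiltered, 499 without the 2 libraries, and 0 to 4 with 1 left out. Same-numbered libraries deviated together at day 7 (r = 0.33, 0.34 and 0.53) but not at each day (r down to -0.34, over 0.1 in 4 of 9 pairs), so the numbers were not taken to pair them; with the replicate block the counts were 39 at day 1, 8 over the mean and 0 in the interaction.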
